A study of Bos taurus with 29 samples.

Results

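CBLN2 (cerebellin 2 precursor, ENSBTAG00000005985) and MDGA1 (MAM domain containing glycosylphosphatidylinositol anchor 1, ENSBTAG00000005888) are genes for proteins that act at the cleft between nerve cells. They were chosen by name and identifier and are 2 of the 24596 genes measured by RNA-Seq in the remaining hypothalamus, the tissue left after the arcuate nucleus (ARC) region was removed. Each was described in 29 Angus X Holstein-Friesian heifer calves at 21 weeks of age. The 14 calves on the high plane of nutrition (HI) received 1.5 kg of milk replacer per day with concentrates ad libitum over a calf phase of 8 weeks, then concentrates and hay to appetite for 11 weeks, for a target gain of 1.2 kg per day. The 15 calves on the moderate plane (MOD) received 0.5 kg of milk replacer and 1 kg of concentrates per day, then 1 kg of concentrates with hay to appetite, for a target gain of 0.5 kg per day. The libraries were made from calves whose growth was near the mean of their diet. Calves shared pens by diet after weaning, so that pen and diet cannot be told apart. Each library is from 1 calf.

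Cerebellins are secreted proteins with a C1q domain. They are released at the axon terminal and link neurexins on the presynaptic membrane to delta-type glutamate receptors on the postsynaptic membrane, and in this way they help to build and maintain synapses. MDGA1 sits on the cell surface through a lipid anchor and works in the other direction: it binds neuroligins, the postsynaptic partners of neurexins, and keeps neurexins from reaching them. Of the peptide genes with which both were compared, AVP encodes the precursor of vasopressin, a hormone of magnocellular neurons of the hypothalamus, and PENK encodes proenkephalin, the precursor of opioid peptides called enkephalins.

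The values are TMM-normalised CPM, read counts scaled to a common library total, in which each library is scaled by a factor that makes most genes comparable between calves. They rest on 11820640 to 17206435 recovered reads per calf (median 13723597). The 4 calves farthest from the others, by the 500 most different genes of each pair, were MOD 1689, HI 2120, MOD 1395 and MOD 2551, with mean log2 distances of 3.13 to 3.51 against at most 2.44 for any other calf, and results that turn on them are given with and without them. Markers of hypothalamic peptide neurons varied widely: AVP was above 1 CPM in 16 of 29 calves, OXT and PMCH in 19 each, HCRT in 14 and GAL in 25. Of the ARC markers, AGRP was at 0 in 23 calves with a maximum of 0.153 CPM, whereas POMC was between 11.2 and 94.7 CPM in every calf. The tissue piece is a mixture of cell types, and fewer cells of a type cannot be told apart from less RNA per cell.

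CBLN2 was an abundant transcript with a very wide range. In HI calves the lowest value was 13.1 CPM (calf 986, 171 reads), the median 123 CPM and the highest 422 CPM (calf 3148, 7126 reads), with a mean of 165 ± 119 CPM (SD, n = 14). In MOD calves the lowest value was 2.01 CPM (calf 1395, 30 reads), the median 76.4 CPM and the highest 323 CPM (calf 991), with a mean of 117 ± 97.7 CPM (SD, n = 15). The diets overlapped over nearly their whole range: calf 3148 of HI exceeded every MOD value, calf 1395 of MOD was under every HI value, and the MOD median was exceeded in 12 of 14 HI calves. Of the 6 calves with the most CBLN2, 4 were HI and 2 were MOD, and of the 6 with the least, 2 were HI and 4 were MOD. Counting error was a small part of this variation, with a coefficient of variation of 4.67% expected from read counts against 78.1% observed over the 29 calves.

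MDGA1 rested on few reads in many calves, and its higher values lay mostly in MOD calves. The lowest, median and highest HI values were 0.822 CPM (calf 2570, 12 reads), 2.02 CPM and 9.50 CPM (calf 986, 124 reads), with a mean of 2.70 ± 2.41 CPM (SD, n = 14). The corresponding MOD values were 0.689 CPM (calf 1690, 9 reads), 3.55 CPM and 17.3 CPM (calf 2532, 272 reads), with a mean of 5.80 ± 5.09 CPM (SD, n = 15). The diets overlapped: 4 MOD calves exceeded every HI value, calf 1690 of MOD was under every HI value, and 11 of 14 HI values were under the MOD median. Among the 6 calves with the most MDGA1, calf 986 was the HI calf and the other 5 were MOD. The same calf 986 had the least CBLN2 of all HI calves. At this level counting error is larger, with an expected coefficient of variation of 19.7% against 98.8% observed.

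**Figure D1:**
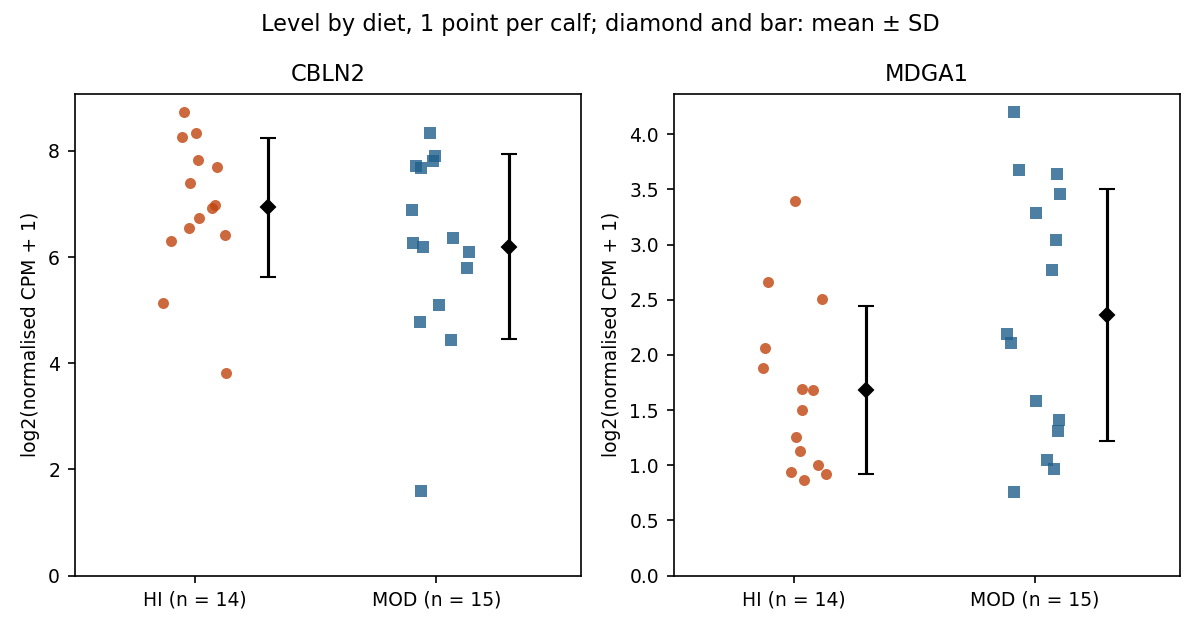
Level of CBLN2 and MDGA1 as log2(CPM + 1) in each of the 14 HI calves (circles) and 15 MOD calves (squares), with the mean ± SD of each diet as a diamond and bar. CBLN2 averages 6.94 ± 1.31 in HI and 6.20 ± 1.75 in MOD, MDGA1 averages 1.68 ± 0.76 and 2.36 ± 1.15, and the diets overlap in both.

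Both genes varied between calves of 1 diet more than most genes did. The within-diet SD of log2(CPM + 1) was 1.55 for CBLN2, at percentile 99.7 of the 13785 genes tested (over 1 CPM in 14 calves or more), where the median gene had 0.43. For MDGA1 the SD was 0.98, at percentile 93.9. The biological coefficient of variation from edgeR, which allows for the read count, was 0.843 for CBLN2 and 0.804 for MDGA1, at percentiles 98.4 and 97.8, against a median of 0.329. Both genes thus stood high on either measure, although CBLN2 was at percentile 85.4 for its mean level and MDGA1 at percentile 11.7. CPM is not scaled by gene length, so that the genes are not compared with each other in amount.

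CBLN2 was not called different between diets. The mean of CPM was 1.41-fold higher in HI than in MOD. On the log2(CPM + 1) scale the HI minus MOD difference was 0.74 (SE 0.55, 95% interval -0.38 to 1.86, limma, p = 0.188, adjusted p = 0.999). A permutation test of the 2 means gave p = 0.214 (two-sided). The interval spans 0 and is wide, so that a difference in either direction was not resolved at this spread. Leaving out single calves moved the difference between 0.41 (without MOD calf 1395) and 0.98 (without HI calf 986), with unadjusted limma p-values between 0.0703 and 0.378. The study listed CBLN2 as lower in HI in the ARC, and not among its genes for the remaining hypothalamus. The higher HI mean here is thus in the other direction, in another tissue piece and without a resolved difference.

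MDGA1 averaged lower in HI, but the difference did not pass the test. Its mean of CPM was 2.15-fold higher in MOD than in HI. The HI minus MOD difference of log2(CPM + 1) was -0.68 (SE 0.35, 95% interval -1.39 to 0.03, limma, p = 0.059, adjusted p = 0.999), and the permutation test gave p = 0.0722 (two-sided). The log2(CPM + 1) scale understates changes of scarce transcripts such as MDGA1. Over all 13785 genes limma called 0 at an adjusted p under 0.10 with a fold over 1.5 (0.0%), while 179 genes (1.3%) had an unadjusted p under 0.05, 104 of them (0.754%) with the lower mean in HI. By p-value MDGA1 was at rank 219 and CBLN2 at rank 1204, and neither was among the 179. MDGA1 belongs to the list of genes that the study chose on these same samples, so that its direction is not independent evidence. Without MOD calf 2532 the difference was -0.55, and without HI calf 986 it was -0.82, with unadjusted limma p-values between 0.0227 and 0.11 over the 29 calves left out in turn.

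The call for MDGA1 depended on how the variance was modelled. On recovered reads, the edgeR exact test with a dispersion per gene gave a log2 fold change of -1.10 (p = 0.0139, adjusted p = 1), where 1.5% of genes had an unadjusted p under 0.05. The edgeR quasi-likelihood test gave -1.10 (p = 0.0224, adjusted p = 1.00), with 1.57% of genes under 0.05. DESeq2 gave -1.10 (SE 0.44, p = 0.0115, adjusted p = 1.00), with 2.21% under 0.05 and 2 genes called (0.0145%), neither of them CBLN2 or MDGA1. In limma-voom with sample quality weights the difference was -1.03 (SE 0.42, p = 0.0197, adjusted p = 0.3), where 12.9% of genes were under 0.05. With trended dispersions, which give MDGA1 the variance of an average gene of its level, and the same filter, the edgeR exact test called it (-1.10, p = 4.07e-05, adjusted p = 0.0187) among 47 of 13785 genes (0.341%). With trended dispersions and a filter of 10 calves it was called too (edgeR, p = 4.72e-05, adjusted p = 0.0184), among 52 of 14021 genes (0.371%), whereas a dispersion per gene with the filter of 10 calves left it uncalled (edgeR, p = 0.014, adjusted p = 1). Trended dispersions with 10 calves were found by comparing settings with the study's q-values, and MDGA1 is on the study's list. The version with the main filter was added after seeing the data. Neither call of MDGA1 is therefore independent evidence. CBLN2 had a log2 fold change of 0.50 and was not called with trended dispersions (edgeR, p = 0.00839, adjusted p = 1 with the main filter and 0.983 with that of 10 calves). CBLN2 had unadjusted p-values of 0.272 (edgeR exact test with a dispersion per gene), 0.303 (edgeR quasi-likelihood test), 0.283 (DESeq2) and 0.323 (limma-voom) in the other fits.

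**Figure D2:**
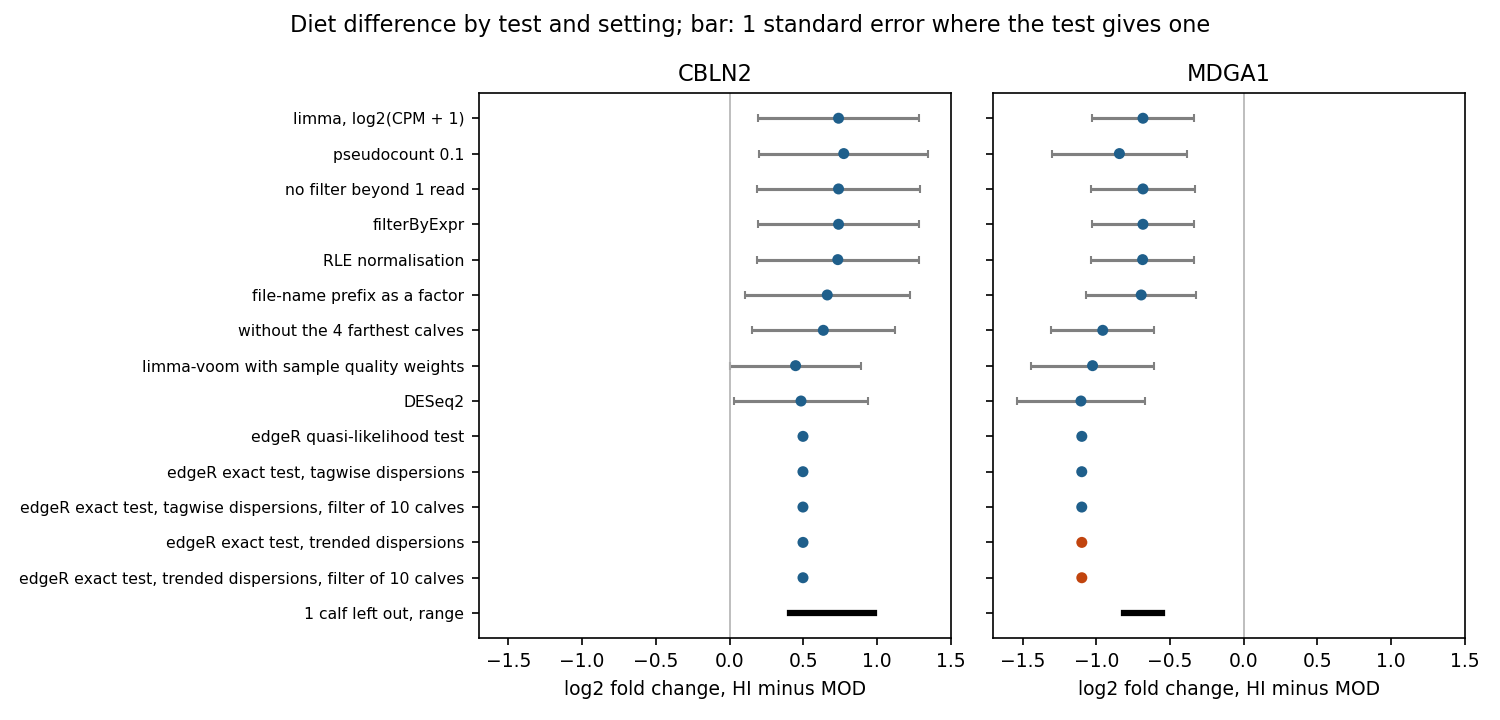
HI minus MOD log2 fold change of CBLN2 and MDGA1 (points) by test and setting, with bars of 1 standard error where the tool gives one and a thick bar for the range with 1 calf left out. CBLN2 lies above 0 and MDGA1 below 0 in each setting shown, and the orange points are the calls of MDGA1 (-1.10) in the exact test with trended dispersions under either filter.

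The sequencing files carried 5 file-name prefixes, each with calves of both diets, and the diet differences were recomputed within each. CBLN2 was higher in HI in 4 of 5 prefixes, with differences of -1.23, 0.85, 1.63, 1.15 and 0.87 on the log2 scale for prefixes 6 to 10. MDGA1 was lower in HI in 4 of 5, with -0.31, -0.55, 0.59, -1.72 and -1.43. Neither gene kept 1 direction within every prefix, and each prefix holds only 5 or 6 calves. Without the 4 farthest calves the MDGA1 difference was -0.96 (limma, p = 0.0111, adjusted p = 0.678) and that of CBLN2 was 0.64 (p = 0.199), in a fit where 828 genes (6.01%) had an unadjusted p under 0.05.

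The spread between calves of a diet was also compared. For MDGA1 the mean absolute deviation from the diet median of log2(CPM + 1) was 0.59 in HI and 0.99 in MOD, a difference of -0.40 (permutation test, two-sided p = 0.0398 with no adjustment for the second gene), and p was 0.0767 with a pseudocount of 0.1. For CBLN2 it was 0.95 in HI and 1.25 in MOD (permutation p = 0.476). The larger MDGA1 spread of MOD calves is a statement about this scale, on which the added 1 compresses low values. Relative to the mean of CPM the spread of MDGA1 was alike in size, with a coefficient of variation of 89.0% in HI and 87.7% in MOD. No difference in spread was detected for CBLN2.

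Few of the molecular partners of both genes could be looked up, because the deposited rows are Ensembl identifiers and 114 of them could be paired with a symbol. The symbols come from the study's lists of genes called different between diets, in this tissue or in the ARC. Of 31 synapse organisers and partners, 4 had an identifier, and none of the neurexins, neuroligins or delta receptors was among them. Besides CBLN2 and MDGA1 these were C1QL3, a secreted C1q-domain protein of synapses, and SYNDIG1L, a relative of the AMPA receptor-associated SynDIG1. C1QL3 had 4.23 ± 4.06 CPM in HI (n = 14) and 5.14 ± 6.03 in MOD (n = 15), a difference of -0.11 (limma, p = 0.794, adjusted p = 0.999), and SYNDIG1L had 56.4 ± 19.8 and 56.0 ± 24.3 CPM (0.13, limma, p = 0.618). The counts that follow stand beside the 1.3% of all genes with an unadjusted p under 0.05 in limma. Because the genes counted were preselected for a diet difference, that share is not a like background and the counts are a description. Among the other 3 C1q-domain genes past the filter, C1QTNF1 was higher in HI at an unadjusted p of 0.0259 (limma, log2 difference 0.44, adjusted p = 0.999). Among 8 genes of vesicle release 0 had an unadjusted p under 0.05 in limma, and among 7 transmitter receptor and synthesis genes CHRNB3, a nicotinic acetylcholine receptor subunit, did (0.74, limma, p = 0.0314, adjusted p = 0.999). The 11 peptide precursors past the filter had a median difference of -0.46 against 0.02 for all genes tested, and 0 of them had an unadjusted p under 0.05 in limma. They too were found only through the study's diet lists, so that their median is a description. In the edgeR exact test with a dispersion per gene, unadjusted p was 0.013 for AVP and 0.0283 for PENK (adjusted p = 1 for both), DESeq2 called AVP (adjusted p = 0.0812), and the edgeR exact test with trended dispersions called both.

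MDGA1 was high in the calves in which PENK was high. Over the 29 calves Pearson r of log2(CPM + 1) was 0.809 (permutation p = 1e-05, the smallest that 100000 resamples can give, adjusted p = 5e-05 over 5 pairs) and Spearman rho was 0.759 (adjusted permutation p = 0.0002). MDGA1, PENK and AVP are all on the study's list of genes lower in HI, chosen on these same calves. The permutation p-values do not allow for that choice, and its part in r was not tested. The calves with the most PENK were MOD 911 (155 CPM), MOD 2532 (136 CPM), MOD 1392 (93.8 CPM) and HI 986 (54.9 CPM), and these 4 were also among the 5 with the most MDGA1. As Pearson r the relation held without the 2 calves farthest from the PENK median (r = 0.741), within HI (r = 0.738, n = 14) and within MOD (r = 0.821, n = 15), and in all 29 fits with 1 calf left out (0.778 to 0.835). As Spearman rho it did not pass within HI (0.604, adjusted permutation p = 0.105) and did within MOD (0.846, adjusted permutation p = 0.00105). Within the prefixes of 6 calves r was 0.917, 0.425, 0.923 and 0.929, so that it was weaker in prefix 7 (exact permutation p = 0.385). Centred within diet r was 0.795, and 21 of 13784 other genes had a higher r with MDGA1 than PENK did. In a least squares fit the diet difference of MDGA1 was -0.68 (SE 0.36) alone and -0.29 (SE 0.23) with the level of PENK as a covariate, and with AVP as a covariate it was -0.34 (SE 0.32). PENK averaged 12.9 ± 17.4 CPM in HI and 37.0 ± 50.3 CPM in MOD, so that these values are a description.

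MDGA1 also varied with AVP, to a lesser degree. Pearson r was 0.619 (permutation p = 0.00041, adjusted p = 0.00102) and Spearman rho 0.507 (adjusted permutation p = 0.0129). Here too the p-values do not allow for the choice of both genes on these calves. AVP was above 100 CPM in 5 calves, HI 986 and MOD 1392, 2346, 2532 and 2551, and at most 34.5 CPM in the others. Among the other 24 calves r was 0.498 (permutation p = 0.0125, adjusted p = 0.0312), and rho was 0.325 (adjusted permutation p = 0.302). The relation with AVP in HI was r = 0.853 (permutation p = 0.00038, adjusted p = 0.0019) and in MOD 0.469 (permutation p = 0.0791, adjusted p = 0.198), a difference that itself did not pass a permutation test (p = 0.172, adjusted p = 0.614). The HI value did not pass as Spearman rho (0.547, adjusted permutation p = 0.105), nor did the relation over 29 calves on CPM without logarithm (r = 0.284, adjusted permutation p = 0.121). MOD calf 2551 had 249 CPM of AVP with 1.65 CPM of MDGA1, whereas MOD calf 911 had 9.17 CPM of AVP with 11.8 CPM of MDGA1. In prefixes 6 to 9, r with AVP was 0.512, 0.402, 0.953 and 0.810 (6 calves each). Centred within diet over 29 calves it was 0.577, and 264 of 13784 other genes had a higher r with MDGA1 than AVP did. Other peptide genes were as close by this measure, with 0.579 for OXT, 0.603 for TAC1 and 0.626 for CARTPT. Of the 11 peptide precursors past the filter 9 had r above 0 with MDGA1, from -0.382 for POMC to 0.795 for PENK, with a median of 0.340.

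CBLN2 and MDGA1 had a negative correlation that did not pass the test as Pearson r and did as Spearman rho. Pearson r was -0.292 (permutation p = 0.124, adjusted p = 0.207), with Spearman rho of -0.416 (permutation p = 0.0255, adjusted p = 0.0425). CBLN2 against AVP gave r = -0.252 (permutation p = 0.188, adjusted p = 0.225, rho = -0.235) and against PENK r = -0.234 (permutation p = 0.225, adjusted p = 0.225, rho = -0.375). MOD calf 1395, the CBLN2 minimum and 1 of the 4 farthest calves, decided these values. Without it r was -0.518 with MDGA1, -0.436 with AVP and -0.515 with PENK (adjusted permutation p = 0.00615, 0.0202 and 0.00615), and leaving out any other single calf gave no adjusted p under 0.05 for these 3 pairs. Without all 4 farthest calves r was -0.493, -0.505 and -0.545 (adjusted permutation p = 0.0126, 0.0113 and 0.00885, n = 25). Without the 2 calves with the most extreme MDGA1, AVP or PENK, r was -0.205, -0.257 and -0.147. In prefix 8 the sign turned, with r = 0.273, 0.351 and 0.582, while it was negative in the other prefixes of 6 calves. Between CBLN2 and MDGA1 r was -0.548 within HI (n = 14) and -0.0846 within MOD (n = 15), and a permutation test of that difference gave p = 0.431 (adjusted p = 0.614). Without the 5 calves over 100 CPM of AVP, r was -0.0643, -0.0144 and -0.047. Centred within diet over 29 calves, r of CBLN2 with MDGA1 was -0.231, and 58.3% of other genes had an r with CBLN2 at least as strong. That share was 65.6% for AVP (r = -0.195) and 67.3% for PENK (r = -0.185).

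**Figure D3:**
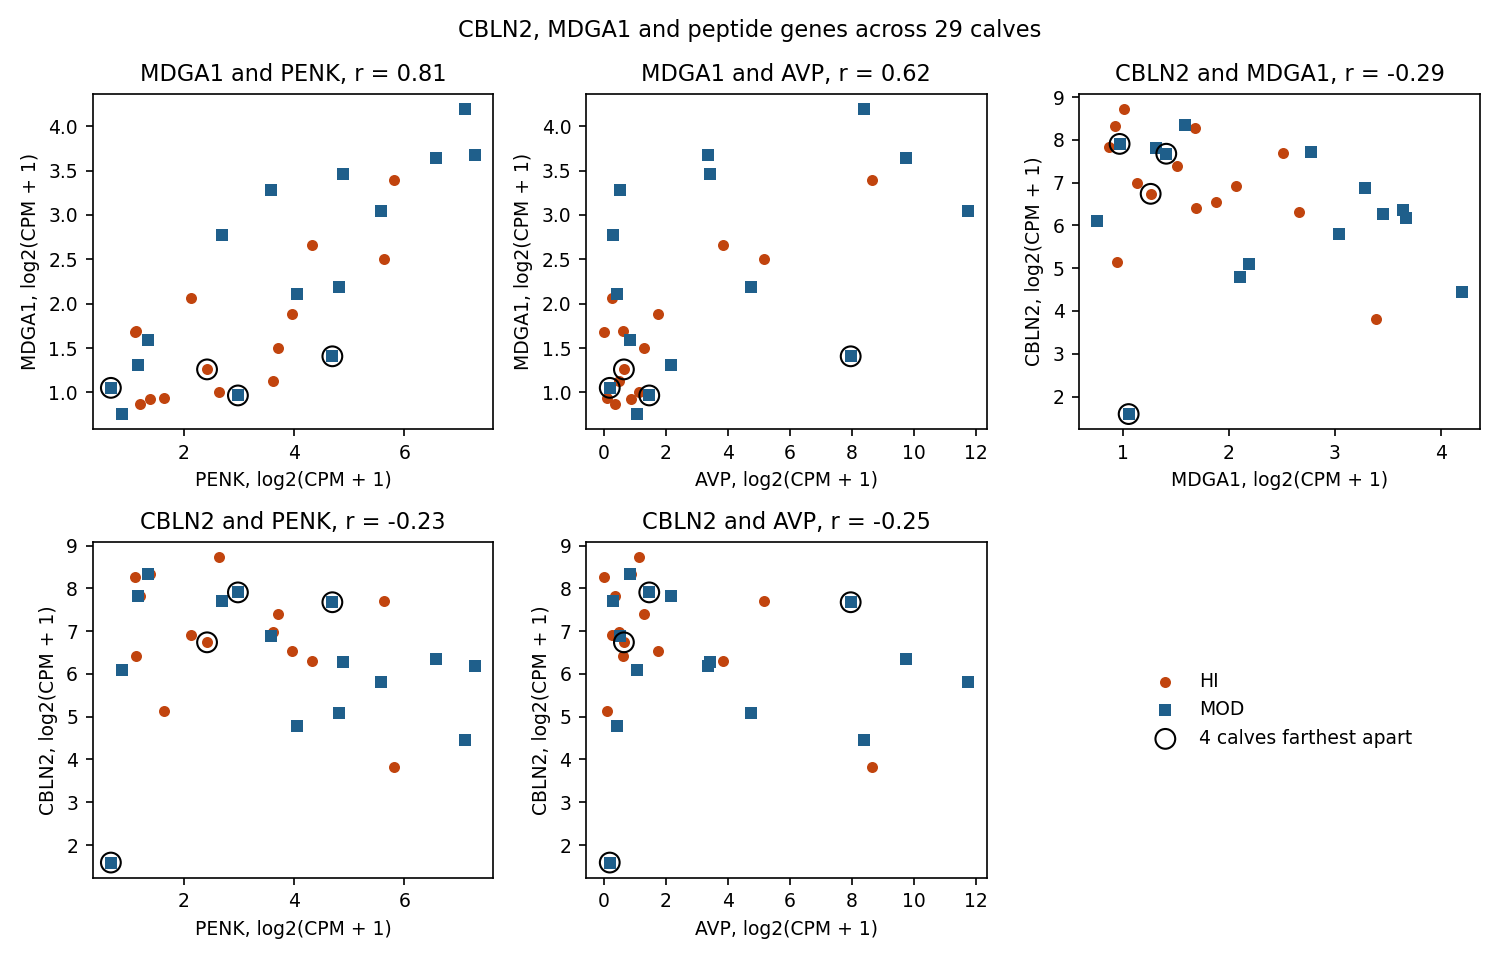
The 5 pairs of genes compared, each calf as a point on log2(CPM + 1) axes, HI as circles and MOD as squares, with the 4 farthest calves ringed and Pearson r over 29 calves above each panel. MDGA1 rises with PENK (r = 0.809) and with AVP (r = 0.619), and calf 1395 sits at the low end of CBLN2.

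The normalisation factor of a library, which scales its CPM, moved with both genes. Over 29 calves MDGA1 correlated with it at r = 0.560 (permutation p = 0.00132, adjusted p = 0.00528 over 4 relations, rho = 0.597, and 0.576 without the 2 farthest calves) and CBLN2 at r = -0.417 (permutation p = 0.0268, adjusted p = 0.0536, rho = -0.509). With the factor taken out of both genes, r between CBLN2 and MDGA1 was -0.0777, whereas MDGA1 with PENK was 0.808 and with AVP 0.607. With CPM computed without the factors, r was -0.271, 0.816 and 0.623. No relation of either gene with the log2 number of reads was detected (adjusted permutation p = 0.35 for CBLN2 and 0.149 for MDGA1).

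Genes most like each of them were looked for among those with a symbol, by Pearson r of log2(CPM + 1) centred within diet over 29 calves. That pool holds only genes of the study's 2 diet lists, so that closer genes without a symbol are not named. The calves share libraries, scaling and tissue composition, and these values are a description. For CBLN2 the highest in this pool were HPCA (0.738), a calcium sensor of neurons, SYNDIG1L (0.694), EXTL1 (0.651), SV2B (0.646), a protein of synaptic vesicles, and CHGA (0.595), a protein of secretory granules. Over all genes tested, 63 had a higher r with CBLN2 than HPCA did, and 743 had a higher r than CHGA did. The lowest were CAPN6 (-0.728), HP (-0.594) and VCAM1 (-0.526), an adhesion molecule of vessels. Of the 13784 other genes, 1393 (10.1%) had r over 0.5 with CBLN2 and 599 (4.35%) under -0.5.

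For MDGA1 the highest of those reported were OTOF (0.862), a calcium sensor of vesicle release, MYH7 (0.817), a myosin heavy chain of slow and heart muscle, GABRE (0.806), a GABA-A receptor subunit, and ARHGAP36 (0.797). The lowest were KLK6 (-0.759), a protease of oligodendrocytes, HHATL (-0.732) and PYGM (-0.714), the muscle glycogen phosphorylase. Fewer genes were this close to MDGA1, with 516 (3.74%) over 0.5 and 491 (3.56%) under -0.5. Of the 34 other genes with a symbol that the study had chosen for this tissue and that passed the filter, 16 had r over 0.5 with MDGA1, against 0 of 35 with CBLN2. That list was chosen on these same samples and its genes, like MDGA1, were selected for a diet difference, so that the count is a description.

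MYH7 and KLK6 are markers of other cell types, and the summed markers of each other cell type are given beside them. For muscle the summed level of MYL2 and MYH7 was 1.78 to 9.34 CPM in HI (median 4.32) and 1.76 to 22.2 CPM in MOD (median 10.3), its r with MDGA1 was 0.778, and MYL2 was above 1 CPM in 6 calves with a maximum of 2.94 CPM. MYL2 did not pass the filter. Most of the sum was MYH7 (mean 4.77 CPM in HI and 9.11 in MOD), already named among the genes most like MDGA1. The muscle gene PYGM went the other way (r = -0.714), so that the sum stands for 1 gene rather than for muscle. KLK6 was 46.1 to 217 CPM in HI and 13.1 to 203 CPM in MOD. For CBLN2 the r with the muscle sum was -0.209 and with KLK6 0.0204. The summed pituitary markers PRL and CGA had r of -0.381 with MDGA1 and 0.138 with CBLN2, and the endothelial marker CLDN5 had -0.344 and 0.088. The smooth muscle marker PPP1R14A had r of -0.356 with MDGA1 and -0.062 with CBLN2, and the blood marker HBD, at 0 in 4 calves and at most 3.06 CPM, had 0.348 and -0.153. The summed markers of hypothalamic peptide neurons, AVP included, had 0.438 and 0.0319, and those of ARC peptide neurons -0.0459 and 0.25. Members of these sums differed in their r with MDGA1. Of the hypothalamic markers OXT had 0.579 and AVP 0.577, against 0.125 for HCRT, 0.103 for PMCH and 0.046 for GAL. Of the ARC markers CARTPT had 0.626 and NPY 0.340, but POMC had -0.382, and AGRP did not pass the filter. The part of tissue composition in the values of MDGA1 was not tested.

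**Figure D4:**
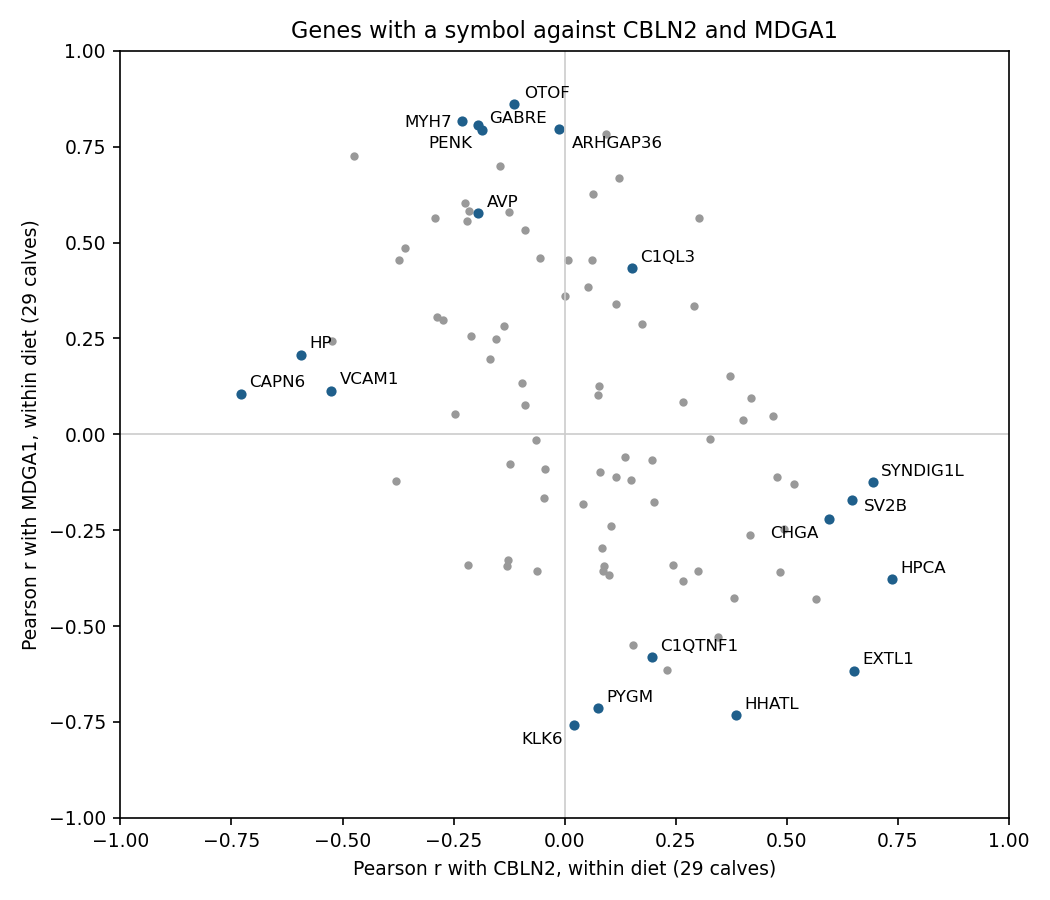
Pearson r of genes with a symbol with CBLN2 (horizontal axis) and with MDGA1 (vertical axis), centred within diet over 29 calves, with some of those named in the text labelled. OTOF and GABRE lie above 0.8 for MDGA1 and below 0 for CBLN2, and HPCA lies at 0.738 for CBLN2.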

How the data were processed

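Samples were grouped by diet from the GEO labels (HI, n = 14; MOD, n = 15). The study's methods and the labels differ on the start of the diets, given in the labels as 2 weeks of age. Per the submitters' processing notes, tools included FastQC 0.11.8, cutadapt 2.6, STAR 2.6.1 and edgeR 3.5 with build UMD3.1. The deposited values are a normalised signal, gene counts divided by the TMM-adjusted library size by the authors. Whole reads were recovered (100% of values within 0.01 of a whole number). The 5 prefixes come from the study's supplementary sample list. No coordinates or sequences are printed, since the reference given was of another build. Both genes, the gene lists and the tests were chosen with earlier results of these data known.

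Genes above 1 CPM in at least 14 calves (13785) were tested with limma 3.58.1 (R 4.3.3, trend) on log2(CPM + 1). Because the deposited values were not counts, edgeR 4.0.16 and DESeq2 1.42.0 on recovered reads were alternatives, as were limma-voom with sample quality weights, a pseudocount of 0.1, other filters, the RLE normalisation, the prefix as a factor and each calf left out. The exact test with trended dispersions and a filter of 10 calves was found in earlier work on these data by comparing settings with the study's own q-values. Correlations used 100000 permutations, or exact enumeration for 6 calves, two-sided, with Benjamini-Hochberg adjustment over the 5 pairs within a setting. Alternatives added after seeing the data were the exact test with trended dispersions under the main filter and with tagwise dispersions under that of 10 calves, and correlations without the calves over 100 CPM of AVP, with Spearman within each diet, without TMM factors, and as residuals on the factor. The least squares fits of the diet difference with PENK or AVP as a covariate were also added after seeing the data. Genes named are CBLN2, MDGA1, AVP, PENK, the members of 6 gene lists with an identifier and the 5 most and 3 least alike genes. The single values of 1 of these genes are not reported here.

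On simulated reads for 13785 genes, limma called 8 of 50 genes changed 1.5-fold, 44 of 50 changed 2-fold and 50 of 50 changed 4-fold between HI and MOD, and 19 of 13585 unchanged genes. The changed genes were drawn at random from all genes tested. Their median biological coefficient of variation was 0.329, against 0.843 for CBLN2 and 0.804 for MDGA1. The simulated counts therefore do not give the power for either gene. Precision given from read counts covers counting error only. Calves are separate animals.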

Additional observations from a re-analysis of the deposited data

How the results depend on the processing

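No paired analysis was possible because each calf has its own number and the diets share none. The direction of both diet differences was kept in 42 of 42 alternatives for CBLN2 and for MDGA1, of which 29 left out a single calf. Differences within a prefix are not among these alternatives. There the direction turned for CBLN2 in prefix 6 (-1.23) and for MDGA1 in prefix 8 (0.59). The exact test with trended dispersions called MDGA1 (-1.10) among 52 genes with a filter of 10 calves and among 47 with the main filter, while tagwise dispersions with the filter of 10 calves called 0, and DESeq2 called 2 genes, against 0 by limma. Without 1 calf the CBLN2 difference was 0.41 to 0.98, the MDGA1 difference -0.82 to -0.55, and 0 genes were called. The spread difference of MDGA1 missed 0.05 with a pseudocount of 0.1 (-0.43), and that of CBLN2 turned to 14.6 CPM without the logarithm. CBLN2 with MDGA1 passed the threshold with Spearman (-0.416), without logarithm (-0.430) and without the 4 farthest calves (-0.493), as did CBLN2 with AVP (-0.505) and with PENK (-0.545) without those calves. Prefix 8 reversed these 3 pairs to 0.273, 0.351 and 0.582. MDGA1 with AVP missed the threshold without logarithm (0.284), in MOD alone (0.469, Spearman 0.461), in HI alone with Spearman (0.547), in prefixes 6, 7 and 9 (0.512, 0.402 and 0.810) and without calves over 100 CPM of AVP with Spearman (0.325). MDGA1 with PENK missed it in prefixes 6 and 7 (0.917 and 0.425) and in HI alone with Spearman (0.604). Without 1 calf r was -0.518 to -0.212 for CBLN2 with MDGA1, -0.436 to -0.157 with AVP, -0.515 to -0.157 with PENK, 0.565 to 0.689 for MDGA1 with AVP and 0.778 to 0.835 with PENK. The prefix subsets hold 6 calves, so that a missed threshold there says little, and otherwise the cause was not tested. Reads of 9 to 272 per calf limit the precision of MDGA1.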
